A study of Rattus norvegicus with 16 samples.

Results

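The genes described here are 6 feedback inhibitors of MAP kinase signalling, the dual-specificity phosphatases Dusp1, Dusp4, Dusp5 and Dusp6 and the Sprouty genes Spry2 and Spry4. They were found as the probe sets whose only gene symbol was one of these 6, which gave 9 of 31099 probe sets on the array and 6 of 14218 genes. Dusp1 had 2 probe sets, Dusp6 had 3, and each of the other genes had 1. Probe sets of a gene were averaged.

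RNA came from the lateral cortex of male Wistar rats aged 8 weeks, dissected from the contusion area. The injured groups received a moderate lateral fluid percussion of 3.3 ± 0.3 atm, in which a pressure pulse through an opening in the skull bruises the cortex, and gave 3 arrays each at 3, 6, 12 and 48 h. The shams of 3, 6 and 12 h (1 array each) formed 1 control group, called early shams here, and the 48 h sham was 1 array; these groupings are the study's own. Every animal, shams included, had a craniectomy over the right parietal cortex 48 h before the procedure and a saline perfusion at the end, so no group represents an unoperated cortex. Nothing in the labels says whether arrays came from separate animals, so p-values measure the spread between arrays, which may be technical. The tissue held all cells of the contused cortex, so a change in RNA per cell cannot be told apart from a change in the number of cells of a type.

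MAP kinases relay signals from growth factor receptors and cell stress to transcription. The ERK branch runs from receptor tyrosine kinases through Ras and Raf, whereas the JNK and p38 branches respond mainly to stress and cytokines. Several genes that these kinases switch on encode proteins that switch the pathway off again: the dual-specificity phosphatases remove the phosphates from active MAP kinases, and Sprouty proteins hold back the signal between receptor and Raf. In brain, transcripts of this kind are known as rapid responders to neuronal activity, growth factors and injury.

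The promoters of the genes with the widest changes, Dusp1 and Dusp5, are shown because both hold motifs of stimulus-responsive transcription factors. RefSeq promoter windows of build GRCr8 were matched for 5 of the 6 genes, with 6 windows since Spry2 has 2, and Dusp4 was not analysed here. Each window is the 250 bases before the annotated start. The Dusp1 window lies at chr10:17184603-17184852 and the Dusp5 window at chr1:262543524-262543773, both on the plus strand. Capitals mark TGACGTCA (the full CRE, the binding motif of CREB and ATF proteins) in Dusp1, TGACG or its complement (the CRE core, which the full CRE contains on both strands) in both genes, and 2 CArG boxes (the binding motif of serum response factor) in Dusp5.
Dusp1: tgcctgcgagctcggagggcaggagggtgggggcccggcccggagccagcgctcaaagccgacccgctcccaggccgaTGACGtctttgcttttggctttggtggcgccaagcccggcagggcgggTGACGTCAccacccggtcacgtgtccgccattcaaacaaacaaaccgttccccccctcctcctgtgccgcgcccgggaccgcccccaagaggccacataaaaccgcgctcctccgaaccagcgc
Dusp5: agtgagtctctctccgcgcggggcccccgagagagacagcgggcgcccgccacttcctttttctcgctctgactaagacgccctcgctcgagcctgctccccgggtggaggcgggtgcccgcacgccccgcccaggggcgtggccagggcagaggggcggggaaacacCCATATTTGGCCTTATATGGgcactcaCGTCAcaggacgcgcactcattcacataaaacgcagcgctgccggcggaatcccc

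In Dusp1 the full CRE lay at positions -124 to -117 and a further CRE core at -172 to -168, counted back from the base before the start, which is -1. In Dusp5 the CArG boxes CCATATTTGG and CCTTATATGG lay next to each other at -82 to -73 and -72 to -63, with a CRE core on the minus strand at -55 to -51. One of the 2 Spry2 windows held a CRE core. None of the motifs searched was in the Dusp6 and Spry4 windows or the other Spry2 window. Both strands were searched for both CRE forms, the AP-1 motif TGANTCA, the ETS factor motif CCGGAAG, the TATA box TATAAA, and the CArG box. Of 33469 rat promoter windows of this length, 1.59% held the full CRE, 18.2% the CRE core, 6.34% the AP-1 motif, 7.27% the ETS motif, 12.9% the TATA box and 1.5% a CArG box. A match describes letters and does not show that a factor binds there.

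Values below are log2 differences of each array from the mean of the 3 early shams. The deposited values are centred on each probe set's median over the 16 arrays, so they show differences between arrays, not how strongly a gene was expressed or whether it was detected. For the same reason, levels of different genes, and the presence of cortical marker genes, cannot be read. Tests are limma's moderated tests over all 16 arrays with a Benjamini-Hochberg adjustment over all 14218 genes. A gene is called where the adjusted p is under 0.05.

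One array stood apart. In injured 12 h replicate 2 the 27 probe sets of the polyA spike-in controls, RNAs added before labelling, averaged -1.50, against -0.16 to 0.44 on the other arrays, while its hybridization controls averaged -0.09 over 18 probe sets, within the range of the other arrays. Results that rest on it are given with and without it. The choice to leave it out of every comparison was made after its values were seen.

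**Figure D1:**
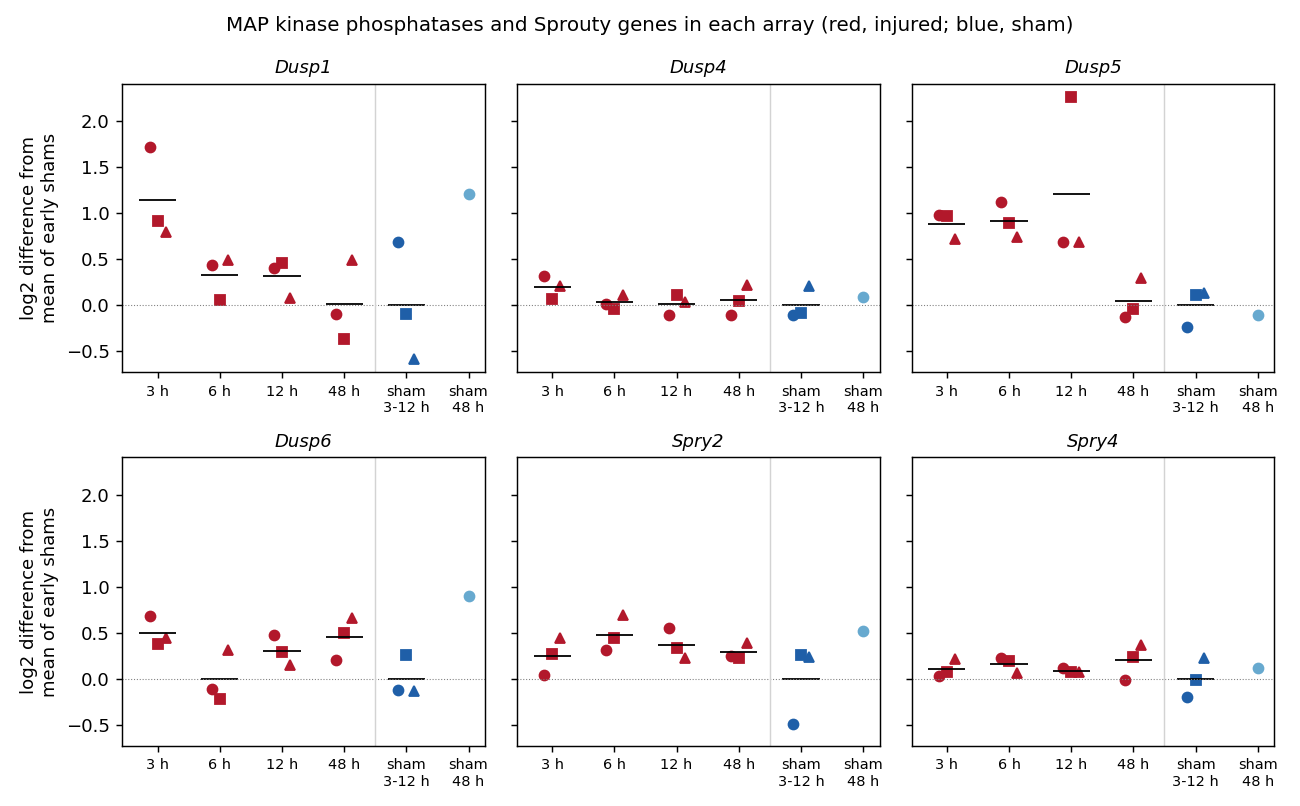
Values of the 6 genes on each array, as log2 differences from the mean of the early shams (vertical axis), for injured groups (red) and shams (blue); circles, squares and triangles are replicates 1, 2 and 3 and bars are group means. Dusp5 stays between 0.68 and 2.26 on all 9 injured arrays of 3 to 12 h and returns to between -0.14 and 0.29 at 48 h, Dusp1 is highest at 3 h, and Dusp4 and Spry4 stay within 0.37 of 0.

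Dusp5, a nuclear phosphatase specific for ERK, stood above every sham in the first 12 h and was called at 12 h. At 3 h it stood at 0.97, 0.96 and 0.71 in injured cortex, at 6 h at 1.12, 0.89 and 0.73, and at 12 h at 0.68, 2.26 and 0.68. At 48 h the injured arrays were at -0.14, -0.05 and 0.29. The early shams were at -0.24, 0.10 and 0.13 and the 48 h sham at -0.11. All 9 injured arrays of 3, 6 and 12 h therefore lay above all 4 shams and above the 3 injured arrays of 48 h, and the 48 h injured arrays overlapped the early shams.

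The difference of Dusp5 from early shams was 0.88 ± 0.31 (SE, n = 3 each) at 3 h, with a limma adjusted p of 0.358. At 6 h the difference was 0.92 ± 0.31 (limma adjusted p = 0.169). At 12 h Dusp5 rose by 1.21 ± 0.31 (95% interval 0.53 to 1.89), which is 2.31-fold, and was called with a limma adjusted p of 0.0419. Averaged over the 9 injured arrays of 3, 6 and 12 h, a comparison added after the data were seen, the difference was 1.003 ± 0.26 (limma adjusted p = 0.0558).

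Whether Dusp5 was called depended on single arrays. Without injured 12 h replicate 2, Dusp5 was called at all 3 times, with differences of 0.88 at 3 h (limma adjusted p = 0.00692), 0.92 at 6 h (limma adjusted p = 0.00183) and 0.68 at 12 h (limma adjusted p = 0.0341). The average over the 3 times was then 0.83 (limma adjusted p = 0.00128). The spread of Dusp5 within groups, with all arrays, was a residual SD of 0.444, which exceeds that of 98.1% of genes. With each early sham left out in turn, the 12 h difference ran from 1.09 to 1.28 and was not called (limma adjusted p = 0.0731 to 0.153). Injured 12 h replicate 2 also had the highest mean of 5 monocyte markers at that time (2.06, against 1.08 and 1.04 on the other injured arrays of 12 h); the part of these markers in its Dusp5 value was not tested.

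The later return of Dusp5 was called. Injured cortex at 48 h was lower than injured cortex at 12 h by a log2 difference of -1.17 ± 0.31 (limma adjusted p = 0.0229), and without injured 12 h replicate 2 by -0.65 (limma adjusted p = 0.0184). Without injured 48 h replicate 1 or replicate 2 it was not called (limma adjusted p = 0.0782 and 0.0675). Between 48 h and 3 h the difference was -0.85 ± 0.31 (limma adjusted p = 0.118), with no overlap between the groups. Against its own sham, injured cortex at 48 h differed by 0.14 ± 0.44 (limma adjusted p = 0.971; 95% interval -0.81 to 1.10).

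Dusp1, a nuclear phosphatase that acts on p38, JNK and ERK, had its highest injured values at the first time. At 3 h the injured arrays stood at 1.72, 0.91 and 0.80. At 6 h they were at 0.44, 0.05 and 0.49, at 12 h at 0.40, 0.45 and 0.08, and at 48 h at -0.10, -0.37 and 0.49. The early shams were at 0.69, -0.10 and -0.59 for 3, 6 and 12 h, and the 48 h sham was at 1.20. The 3 h injured arrays lay above every early sham and above every later injured value, but the 48 h sham exceeded 2 of them.

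At 3 h the difference of Dusp1 from early shams was 1.14 ± 0.31 (2.21-fold, unadjusted p = 0.00252), and limma's adjusted p was 0.177, so it was not called. A difference of 1.49 would have been needed for a call with this gene's spread. The adjusted p was 0.0344 with a difference of 1.49 when the 3 h sham was left out. At 6 and 12 h the differences were 0.33 ± 0.31 and 0.31 ± 0.31 (limma adjusted p = 0.698 and 0.629). Within injured cortex Dusp1 fell by 48 h: the 48 h arrays were lower than the 3 h arrays by -1.14 ± 0.31 (limma adjusted p = 0.0366), and most of the distance already stood at 6 h against 3 h, at -0.82 ± 0.31 (limma adjusted p = 0.232). The 48 h call was lost without injured 3 h replicate 1 (-0.85, limma adjusted p = 0.15), injured 3 h replicate 2 (limma adjusted p = 0.0675), injured 48 h replicate 1 (limma adjusted p = 0.11) or injured 48 h replicate 2 (limma adjusted p = 0.162).

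The size of the Dusp1 differences depended on the control chosen. The 4 shams spanned 1.79 for Dusp1, the widest range of the 6 members and wider than that of 99.6% of genes, whose median range was 0.25. Against the single sham of the same time, the Dusp1 difference was 0.46 at 3 h, 0.42 at 6 h and 0.90 at 12 h. Against all 4 shams it was 0.84 at 3 h, 0.03 at 6 h and 0.01 at 12 h. At 48 h the injured arrays lay below their own sham by -1.19 ± 0.44 (unadjusted p = 0.0168, limma adjusted p = 0.545), and the difference from early shams was 0.01 ± 0.31. The 48 h sham itself differed from the early shams by 1.20 ± 0.44 (limma adjusted p = 0.615). The injury effect at 48 h minus that at 3 h was -2.34 ± 0.54 (limma adjusted p = 0.253; 0 of 6 members and 0.0985% of all genes were called). Since the 48 h sham is 1 array, its spread was taken from the other groups.

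**Figure D2:**
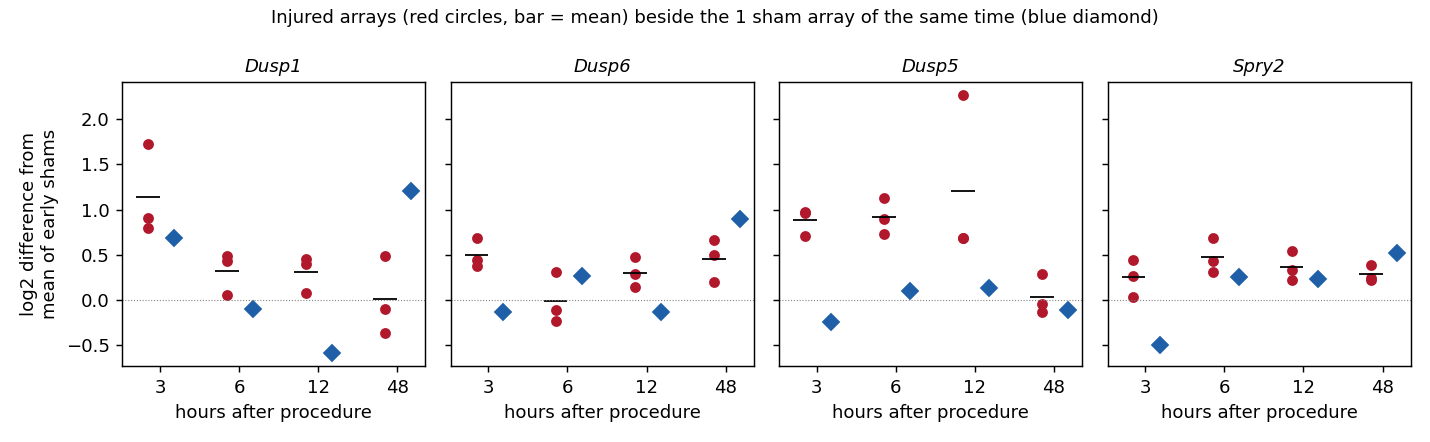
Injured arrays (red circles, with the group mean as a bar) beside the 1 sham array of the same time (blue diamond) at 3, 6, 12 and 48 h, as log2 differences from the mean of the early shams. For Dusp1, Dusp6 and Spry2 the 48 h sham, at 1.20, 0.89 and 0.52, lies above all injured arrays of its time. For Dusp5 the shams stay between -0.24 and 0.13.

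Dusp6, a cytoplasmic phosphatase specific for ERK, had smaller differences, with its lowest injured values at 6 h. At 3 h the injured arrays were at 0.68, 0.37 and 0.44, at 6 h at -0.11, -0.23 and 0.31, at 12 h at 0.48, 0.29 and 0.15, and at 48 h at 0.20, 0.50 and 0.66. The early shams were at -0.13, 0.26 and -0.13 and the 48 h sham was at 0.89. Only the 3 h injured arrays lay wholly above the early shams, and the 48 h sham lay above all injured arrays.

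None of the Dusp6 differences was called. From early shams it differed by 0.50 ± 0.16 at 3 h (limma adjusted p = 0.287), -0.01 ± 0.16 at 6 h (limma adjusted p = 0.992) and 0.30 ± 0.16 at 12 h (limma adjusted p = 0.315). At 48 h the difference was 0.45 ± 0.16 from early shams (limma adjusted p = 0.0926) and -0.44 ± 0.23 from the 48 h sham (limma adjusted p = 0.714), so its direction depended on the control. The 48 h sham differed from early shams by 0.89 ± 0.23 (limma adjusted p = 0.419). The 6 h arrays all lay below the 3 h arrays, with a difference of -0.50 ± 0.16 (limma adjusted p = 0.155). The 3 probe sets of Dusp6 gave 0.41, 0.72 and 0.37 at 3 h and -0.05, 0.21 and -0.19 at 6 h, so they did not share a sign at 6 h. Their correlations over the 16 arrays were 0.67 to 0.904, whereas the 2 probe sets of Dusp1 correlated at 0.97.

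Dusp4, a nuclear phosphatase for ERK and JNK, differed little between groups. Its injured arrays were at 0.31, 0.06 and 0.21 at 3 h, 0.01, -0.04 and 0.11 at 6 h, -0.11, 0.11 and 0.03 at 12 h, and -0.11, 0.04 and 0.22 at 48 h. The early shams were at -0.11, -0.09 and 0.20 and the 48 h sham at 0.08. Injured and early sham values overlapped at every time, and the difference at 3 h was 0.19 ± 0.11 (95% interval -0.04 to 0.42; limma adjusted p = 0.632). At 6 h it was 0.03 ± 0.11, at 12 h 0.01 ± 0.11 and at 48 h 0.05 ± 0.11. With this spread, a Dusp4 difference of 0.52 would have been called at 3 h, 0.43 at 6 h and 0.40 at 12 h.

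Spry2, a membrane-associated inhibitor of receptor tyrosine kinase signalling to Ras and Raf, had its highest injured values at 6 h. The injured arrays were at 0.04, 0.27 and 0.45 at 3 h, 0.31, 0.44 and 0.69 at 6 h, 0.55, 0.34 and 0.23 at 12 h, and 0.25, 0.23 and 0.39 at 48 h. Its early shams were at -0.49, 0.26 and 0.24 and the 48 h sham was at 0.52. The 6 h injured arrays lay above the early shams, 2 of which stood well above the 3 h sham. The difference was 0.48 ± 0.18 at 6 h (limma adjusted p = 0.216), 0.37 ± 0.18 at 12 h (limma adjusted p = 0.26) and 0.25 ± 0.18 at 3 h (limma adjusted p = 0.74). Against the single sham of the same time it was 0.74, 0.22 and 0.13 at 3, 6 and 12 h, none of them called. At 48 h the difference was 0.29 ± 0.18 from early shams (limma adjusted p = 0.348) and -0.23 ± 0.25 from the 48 h sham (limma adjusted p = 0.895).

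Spry4, a second Sprouty inhibitor of the same step, was at 0.03, 0.07 and 0.21 at 3 h, 0.22, 0.19 and 0.06 at 6 h, 0.11, 0.07 and 0.07 at 12 h, and -0.02, 0.24 and 0.37 at 48 h in injured cortex. Early shams were at -0.20, -0.02 and 0.22 and the 48 h sham at 0.11. Injured and early sham values overlapped at all 4 times. From early shams Spry4 differed by 0.10 ± 0.11 at 3 h, 0.16 ± 0.11 at 6 h, 0.08 ± 0.11 at 12 h and 0.20 ± 0.11 at 48 h (limma adjusted p = 0.301 to 0.854).

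**Figure D3:**
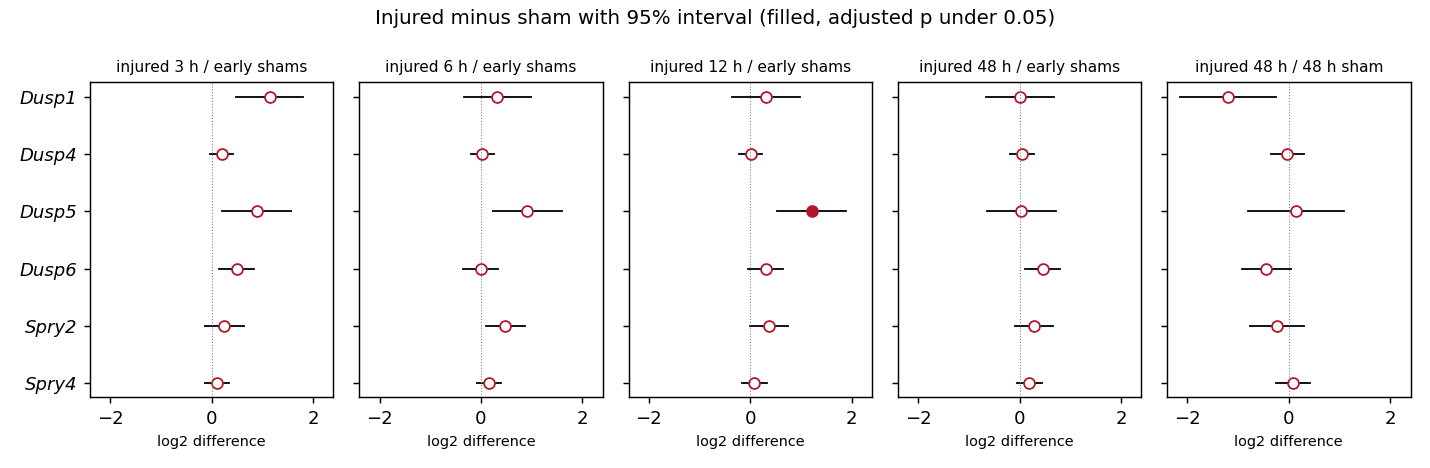
Log2 differences between injured and sham cortex with 95% intervals (horizontal axis) for the 6 genes (rows) in 5 comparisons, with n = 3 arrays a group except the single 48 h sham; filled points passed limma's adjusted p under 0.05. The 1 filled point is Dusp5 at 12 h (1.21), and the intervals of Dusp1 at 3 h (0.48 to 1.81) and Dusp6 at 3 h (0.15 to 0.84) lie above 0 although they were not called.

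Counted together against early shams, 0 of 6 members were called at 3 h, where 0.584% of all genes were called, and 3 of 6 had an unadjusted p under 0.05, as did 9.55% of all genes. At 6 h 0 of 6 were called, where 2.67% of all genes were, and 2 of 6 had an unadjusted p under 0.05, as did 14.3% of all genes. At 12 h 1 of 6 was called, against 4.87% of all genes, and 1 of 6 had an unadjusted p under 0.05, as did 20.5% of all genes. At 48 h against early shams 0 of 6 were called (9.68% of all genes) and 1 of 6 had an unadjusted p under 0.05, as did 25.3% of all genes. In injured cortex of 48 h 0 of 6 were called against the 48 h sham, where no gene was called by limma at all (0%) although 1061 genes (7.46%), Dusp1 among them, had an unadjusted p under 0.05. All injured arrays exceeded all early shams for 3 of 6 members at 3 h (Dusp1, Dusp5 and Dusp6), where 7.5% of all genes did. The same held for 2 of 6 at 6 h (Dusp5 and Spry2; 10.8% of all genes) and for 1 of 6 at 12 h (Dusp5; 10.5% of all genes) and 0 of 6 at 48 h (14.7% of all genes). Across the 9 injured arrays of 3 to 12 h, 1 of 6 members (Dusp5) lay above all early shams, as did 2.09% of all genes, and 0 of 6 were called in that average (2.71% of all genes).

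Between injured times, 0 of 6 members were called for 6 h against 3 h (1.2% of all genes) and 0 of 6 for 12 h against 6 h (0.0141% of all genes). For 48 h against 12 h, 1 of 6 was called (Dusp5; 15.3% of all genes), and for 48 h against 3 h, 1 of 6 (Dusp1; 8.67% of all genes). In the 48 h sham against early shams 0 of 6 were called (0.00703% of all genes). The median difference of the 6 members from early shams was 0.37 at 3 h, 0.24 at 6 h and 0.31 at 12 h, where the medians of all genes were -0.01, -0.02 and -0.02. At 48 h it was -0.13 against the 48 h sham and 0.12 against early shams, where all genes had medians of 0 and -0.01.

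The members did not follow 1 common course. Over the 16 arrays, which share their injury times, the highest Pearson correlations between members were 0.563 for Spry2 and Spry4 and 0.539 for Dusp1 and Dusp6, and Dusp5 and Dusp6, both specific for ERK, had -0.069. The Spearman rank correlation was 0.287 for Spry2 and Spry4 and 0.54 for Dusp1 and Dusp6. Within groups the correlations of the 15 pairs ran from -0.518 for Dusp1 and Spry2 to 0.589 for Dusp4 and Spry4, and Spry2 and Spry4 had 0.521. The genes most like Dusp5 over the 16 arrays were Skil, an inhibitor of SMAD signalling (r = 0.956), Gadd45b, a stress-inducible activator of MAP kinase kinase kinases (r = 0.946), and Noct, a circadian phosphatase (r = 0.946). Without injured 12 h replicate 2 these correlations were 0.912, 0.923 and 0.889. For Dusp1 the nearest were Gga1 (0.872), Shank3 (0.834) and Msra (0.826), and for Dusp6 Ccdc22 (0.811), Ap5s1 (0.8) and Rmdn2 (0.794). Dusp4 was nearest to Itgad (0.793), Cacna1i (0.752) and Map3k9 (0.745), Spry2 to Tmtc3 (0.804), Xkr8 (0.794) and Tmem170a (0.789), and Spry4 to Cdsn (0.856), Ctsj (0.815) and Cemip (0.8). By rank, Spry2 correlated less with Tmtc3, Xkr8 and Tmem170a (Spearman 0.63, 0.39 and 0.652).

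Among the other feedback genes, Spry1, another Sprouty gene, was called where Spry2 and Spry4 were not. Injured cortex was at 0.28, 0.89 and 0.81 at 3 h, 1.53, 1.21 and 1.54 at 6 h, 0.94, 0.77 and 1.27 at 12 h, and 0.47, 1.11 and -0.03 at 48 h, against 0.00, 0.11 and -0.11 in early shams and 0.21 in the 48 h sham. All 9 injured arrays of 3 to 12 h lay above all 4 shams. Spry1 rose by 1.43 ± 0.24 at 6 h (limma adjusted p = 0.00432) and by 0.99 ± 0.24 at 12 h (limma adjusted p = 0.0275), and the 3 h difference was 0.66 ± 0.24 (limma adjusted p = 0.363). The 6 h call held with each array of both groups left out in turn, whereas the 12 h call was lost without injured 12 h replicate 3 (limma adjusted p = 0.0596) or any of the early shams (limma adjusted p = 0.0739 to 0.0837). Whether Spry1 differed from Spry2 and Spry4 was not tested. The other 7 measured inhibitors of receptor tyrosine kinases and Ras, among 8 measured of 11 listed, were not called at 3, 6 or 12 h. Errfi1, an inhibitor of the EGF receptor, differed from early shams by 0.73 ± 0.28 at 6 h (limma adjusted p = 0.229).

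The other MAP kinase phosphatases, Dusp2, Dusp7, Dusp8, Dusp9 and Dusp10, were not called in any comparison of injured with sham cortex (0 of 5). At 3 h their differences from early shams ran from 0.03 for Dusp8 to 0.37 ± 0.23 for Dusp2, an inducible nuclear phosphatase. At 12 h they ran from -0.22 ± 0.09 for Dusp8 (limma adjusted p = 0.184) to 0.41 ± 0.23 for Dusp2 (limma adjusted p = 0.343). The Dusp2 value rested on injured 12 h replicate 2, at 1.02, whereas replicates 1 and 3 were at 0.01 and 0.20.

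**Figure D4:**
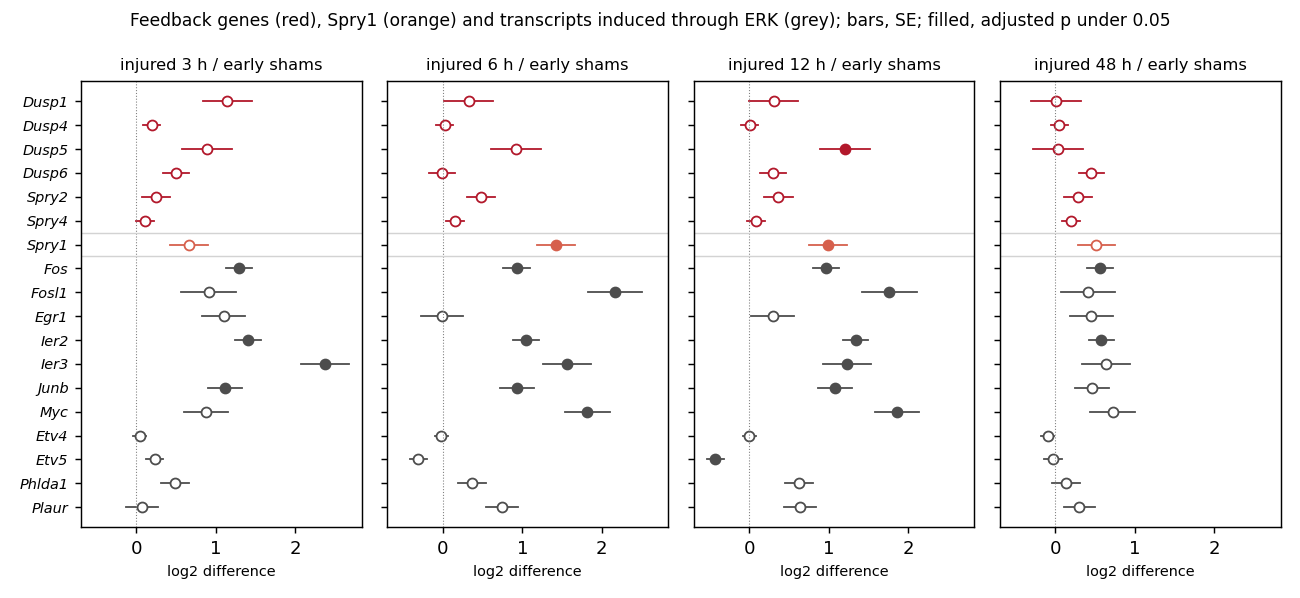
Log2 differences from early shams with their SE (horizontal axis, n = 3 arrays a group) at 3, 6, 12 and 48 h for the 6 members (red), Spry1 (orange) and 11 transcripts induced through ERK (grey); filled points passed limma's adjusted p under 0.05. Ier3 stands highest at 3 h (2.37), Fosl1 at 6 h (2.17) and Myc at 12 h (1.86), beside 1 filled member, Dusp5 at 12 h.

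Of 11 transcripts known to be induced through ERK, 4 rose at 3 h, 6 at 6 h and 6 at 12 h, and 1 fell at 12 h. Ier3, an early response gene that prolongs ERK signalling, rose by 2.37 ± 0.30 at 3 h (limma adjusted p = 0.00177), Ier2 by 1.41 ± 0.16 (limma adjusted p = 0.000662) and Fos, a subunit of the AP-1 factor, by 1.29 ± 0.17 (limma adjusted p = 0.00177). At 6 h Fosl1, another AP-1 subunit, rose by 2.17 ± 0.34 (limma adjusted p = 0.00309) and Myc by 1.82 ± 0.28 (limma adjusted p = 0.0027). At 12 h the increase of Myc was 1.86 ± 0.28 (limma adjusted p = 0.00175) and that of Ier2 1.34 ± 0.16 (limma adjusted p = 0.000357). The gene that fell at 12 h was Etv5, an ETS factor of the FGF pathway, by -0.43 ± 0.11 (limma adjusted p = 0.0379), named after its value was seen. The mean of the 11 transcripts was 0.80 to 0.98 at 3 h, 0.79 to 0.89 at 6 h, 0.66 to 1.20 at 12 h and 0.23 to 0.53 at 48 h in injured arrays, against -0.11 to 0.08 in early shams and 0.50 in the 48 h sham.

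Fewer of these transcripts were called with other controls. Against the single sham of the same time, 0, 2 and 2 were called at 3, 6 and 12 h, and calls over all genes fell in number likewise, to 9, 70 and 77, against 83, 379 and 692 with the early shams. Against the single 3 h sham the 3 h differences were 2.45 for Ier3, 1.31 for Ier2 and 0.86 for Fos (limma adjusted p = 0.172 to 0.223). With all 4 shams as the control 1 transcript was called at 3 h, and 90 genes in all. At 48 h 2 of 11 rose against early shams (Ier2 at 0.58 ± 0.16 and Fos at 0.56 ± 0.17; limma adjusted p = 0.0378 and 0.0488) and 0 of 11 against the 48 h sham. Without injured 12 h replicate 2, or without the 6 h sham, 4 were called at 12 h in either direction, where 7 were with all arrays. The 48 h sham stood at 1.12 for Ier2 and 1.14 for Fos, above all injured arrays of its time. Those were at 0.26, 0.96 and 0.52 for Ier2 and at 0.34, 0.66 and 0.67 for Fos, so the direction at 48 h depended on the control. The 48 h calls of Ier2 and Fos were lost without injured 48 h replicate 2 (limma adjusted p = 0.17 and 0.172) or the 6 h or 12 h sham, and each without 1 or 2 further arrays.

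Upstream of the feedback genes, 0 of 17 growth factor ligands were called at 3, 6 or 12 h. The ligand Hbegf, named after its values were seen, nevertheless stood above every sham on every injured array of these times. It was at 0.45, 0.53 and 0.31 at 3 h, 0.80, 0.56 and 1.36 at 6 h, and 1.04, 2.59 and 0.72 at 12 h. The early shams were at 0.24, -0.08 and -0.15 and the 48 h sham at -0.23. Of 17 receptors 0 were called at 3 h, 1 at 6 h and 2 at 12 h. Flt1, a VEGF receptor, rose by 0.69 ± 0.15 at 6 h (limma adjusted p = 0.0232), and at 12 h Kdr, the other main VEGF receptor, rose by 0.64 ± 0.14 (limma adjusted p = 0.0169) and Ret, the GDNF receptor, by 0.45 ± 0.12 (limma adjusted p = 0.0465). These calls were lost without single arrays: that of Flt1 without injured 6 h replicate 1 or 2 or any early sham (limma adjusted p up to 0.13), that of Kdr without injured 12 h replicate 2 or the 6 h sham (limma adjusted p up to 0.0781), and that of Ret without injured 12 h replicate 1 or 2 or any early sham (limma adjusted p up to 0.201). Of 10 genes of the cascade from Ras to ERK, only Nras was called at 12 h (0.38 ± 0.08; limma adjusted p = 0.0211), and not without injured 12 h replicate 2 or any of the early shams. At 48 h against early shams Shc1, an adaptor between receptors and Ras, rose by 1.28 ± 0.25 (limma adjusted p = 0.00745), but against the 48 h sham it differed by 0.57 ± 0.36 (limma adjusted p = 0.775). Nras, Ret, the ligand Fgf9 and the neurotrophin receptor Ntrk3 were also called at 48 h against early shams, at 0.36, 0.55, -0.41 and -0.42, and against the 48 h sham they differed by 0.22, 0.57, -0.49 and -0.10 with no call. Each of these 4 calls was lost with 1 or more arrays left out (limma adjusted p up to 0.213).

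In the JNK and p38 cascades, whose kinases are substrates of Dusp1, 0 of 12 genes were called at 3 h, 2 at 6 h and 3 at 12 h. Map2k3, a kinase that activates p38, stood at 1.40, 1.29 and 1.11 at 6 h and 0.93, 1.81 and 1.08 at 12 h in injured cortex, against 0.00, -0.23 and 0.23 in early shams. It rose by 1.27 ± 0.19 at 6 h (limma adjusted p = 0.00205) and by 1.27 ± 0.19 at 12 h (limma adjusted p = 0.00149), and both calls held with each array left out in turn. At 12 h Mapkapk2, a kinase downstream of p38, rose by 0.56 ± 0.11 (limma adjusted p = 0.0107) and Mapk14, which encodes p38 alpha, by 0.44 ± 0.09 (limma adjusted p = 0.012). Without the 6 h sham neither was called (limma adjusted p = 0.0545 and 0.0688), and Mapk14 was also lost without injured 12 h replicate 2 (limma adjusted p = 0.0502). At 48 h 2 of 12 fell against early shams: Mapk9, which encodes the kinase JNK2, by -0.45 ± 0.11 (limma adjusted p = 0.0195) and Mapk11, which encodes p38 beta, by -0.62 ± 0.15 (limma adjusted p = 0.0189). Against the 48 h sham they differed by -0.28 ± 0.15 and -0.65 ± 0.21 with no call, and both calls against early shams were lost with single arrays left out (limma adjusted p up to 0.0943 and 0.0799).

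Marker genes of other cells moved over the same hours. In the 48 h sham the marker means were 0.46 for neutrophil, 0.28 for endothelial and -0.07 for choroid plexus markers. These lay within the range of the injured arrays of 48 h given below. Its means of 0.50 for monocyte, 0.40 for microglia and -0.46 for erythrocyte markers lay below that range. The mean of 4 neutrophil markers was -0.03 to 0.21 at 3 h, 2.45 to 4.15 at 6 h, 3.35 to 3.86 at 12 h and -0.01 to 1.91 at 48 h in injured arrays, against -0.12 to 0.20 in early shams. The mean of 5 monocyte markers was 0.20 to 0.53 at 3 h, 0.82 to 1.52 at 6 h, 1.04 to 2.06 at 12 h and 1.06 to 2.61 at 48 h, against -0.03 to 0.06 in early shams. Of the 5, only Cd14 was called against early shams at 6 h (3.54) and 12 h (3.80). The median differences of the 5 were 0.61 and 0.94 at these times. At 48 h 4 of the 5 were called. Erythrocyte markers (2 genes) averaged 1.40 to 2.17 at 3 h and 1.83 to 2.77 at 6 h. At 12 h they averaged 0.54 to 1.85 and at 48 h -0.10 to 0.10, against -0.41 to 0.37 in early shams. Like Dusp5, this mean stood above the shams over the first 12 h and among them at 48 h. Of the 2 genes, only Hbb was called against early shams at 3, 6 and 12 h (3.88 at 6 h and 2.53 at 12 h). The course of the mean therefore rested mainly on 1 gene. Microglia markers (5 genes) averaged -0.46 to 0.08 at 3 h, -1.30 to -0.71 at 6 h, -1.16 to -0.97 at 12 h and 0.78 to 1.31 at 48 h, against -0.24 to 0.27 in early shams. Of the 5, 3 fell at 6 h and 3 at 12 h, and 5 were called higher in injured cortex at 48 h than at 12 h. Endothelial markers (4 genes) averaged -0.25 to 0.16 at 3 h, -0.77 to -0.57 at 6 h, -0.69 to -0.04 at 12 h and 0.14 to 0.31 at 48 h, against -0.03 to 0.04 in early shams. These genes did not move together: at 6 h Cldn5 (-1.52) and Slco1a4 (-1.91) were called lower and Flt1, the VEGF receptor named above, higher (0.69). Markers of meninges and fibroblasts (5 genes) averaged -1.28 to -1.17 at 3 h and -1.68 to -0.77 at 6 h in injured arrays. At 12 h they averaged -1.75 to -0.56 and at 48 h 0.12 to 1. The early shams were at -0.36 to 0.27 and the 48 h sham at 0.80. Choroid plexus markers (4 genes) averaged 0.33 to 1.66 at 3 h, -0.11 to 0.27 at 6 h, 0.13 to 1.43 at 12 h and -0.18 to -0.04 at 48 h, against -0.01 to 0.01 in early shams. The median difference of these 4 genes from early shams was only 0.14 at 3 h and 0.15 at 12 h, with 0 called. Ttr was the only 1 called lower at 48 h than at 3 h in injured cortex (-4.74), so the means do not describe a shared course. Means of neuron, astrocyte and oligodendrocyte markers stayed between -0.44 and 0.44 on all arrays, but single markers were called against early shams. Of the astrocyte markers, Gfap rose at 12 h (1.16) whereas Gjb6 (-1.14) and Aldh1l1 (-0.50) fell, and at 48 h Gfap (1.85) and Aqp4 (0.45) were higher. Of the neuron markers, Camk2a was lower at 12 h (-0.69) and 48 h (-0.77) and Rbfox3 at 48 h (-0.34). The part of these cells in the values of the 6 members was not tested.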

How the data were processed

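Polyadenylated RNA was hybridized to Affymetrix rat arrays, 16 in all. The authors deposited RMA values per the submitters' processing notes (RMA corrects background, normalizes by quantiles and summarizes probe sets); these deposited values were taken as log2, a base that is not stated. Each probe set's median over the arrays is 0 in the table. Probe sets with 1 symbol (20832) were averaged per gene; 436 with several symbols and 9831 with none were left out. Arrays have no read depth, and their number limits the precision.

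A model of the 6 groups was fitted with limma 3.58.1 in R 4.3.3 and tested on simulated data. The members and gene lists were chosen with earlier results of these data known. Named genes were all members, the 3 genes most correlated with each, and up to 3 called genes of each pathway list per comparison with the largest difference; further list members were named after their values were seen. Alternatives were other probe set rules, normalizations, controls and thresholds, only the groups compared, a replicate block, and leaving out each array. The labels do not say that replicate numbers pair injured arrays, so the main model has no block. Of 18 correlations of deviations between arrays of the same number, 3 were over 0.1 (range -0.188 to 0.257). Such a count cannot settle whether arrays were paired.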

Additional observations from a re-analysis of the deposited data

Results flagged for a closer look

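These results compare the injured groups at different times and passed the test of the difference itself. Dusp5 was lower in injured cortex at 48 h than at 12 h by -1.17 ± 0.31 (limma adjusted p = 0.0229), with values of -0.14, -0.05 and 0.29 at 48 h and of 0.68, 2.26 and 0.68 at 12 h. Dusp1 was lower at 48 h than at 3 h by -1.14 ± 0.31 (limma adjusted p = 0.0366), with values of -0.10, -0.37 and 0.49 at 48 h and of 1.72, 0.91 and 0.80 at 3 h. The differences are between injured arrays, but the shams enter the variance behind both calls. With only the groups compared in the model neither was called (limma adjusted p = 0.171 and 0.0718), and without injured 12 h replicate 2 the Dusp5 difference was -0.65 (limma adjusted p = 0.0184).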

How the results depend on the processing

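Under the alternatives, 1223 of 1254 values of the 6 members kept their side of the threshold. A further 14 were no longer called, 17 became called and 0 called values reversed. Among the 1223, 60 values that were not called changed sign. With quantile normalization 1 member (Dusp5) was called at 6 h (0.86, limma adjusted p = 0.021), 2 in 48 h against 3 h (Dusp1 and Dusp5) and 1 in the average of 3 to 12 h. With only the groups compared in the model, Dusp5 was the 1 member called at 3 h (limma adjusted p = 0.0152) and at 6 h (limma adjusted p = 0.00447), and 0 were called at 12 h and for 48 h against 12 h. In 48 h against 3 h that model called Dusp5 in place of Dusp1. At 12 h 0 were called with robust variances (Dusp5, limma adjusted p = 0.0531) or with the single 12 h sham (limma adjusted p = 0.512). An adjusted p under 0.1 added 1 at 48 h against early shams (Dusp6) and 1 in the average, as did all 4 shams in the average (Dusp5). With 1 array of the compared groups left out in turn, 0 to 1 members were called at 3 h, at 12 h and in the average. The same held for 48 h against 12 h and 48 h against 3 h, and at 6 h 0 were called. The 1 at 3 h was Dusp1, without the 3 h sham. Without injured 12 h replicate 2 in every comparison, 1 was called at 3 h, 1 at 6 h and 2 in 48 h against 3 h. For the effect at 48 h minus that at 3 h, 0 to 1 was called (Dusp1, -2.58, without injured 48 h replicate 3). The causes were not tested.

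With the replicate block, 0, 0, 1 and 1 members were called in 6 h against 3 h, 12 h against 6 h, 48 h against 12 h and 48 h against 3 h, as without it. Over all genes it gave 156, 3, 2166 and 1224 calls, where the model without the block gave 170, 2, 2180 and 1233. Leaving out 1 array, either of the compared groups or injured 12 h replicate 2, moved the number of genes called. At 3 h it went from 83 to between 33 and 122, and at 6 h from 379 to between 177 and 630. At 12 h it went from 692 to between 287 and 1230, and at 48 h against the 48 h sham from 0 to between 1 and 129.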
